A study of Mus musculus with 12 samples.

Results

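Dual specificity phosphatases remove phosphate from both tyrosine and threonine and many of them switch off MAP kinases. The 10 genes described here, Dusp1, Dusp3, Dusp4, Dusp5, Dusp6, Dusp7, Dusp10, Dusp15, Dusp16 and Dusp26, are 10 of 27 dual specificity phosphatase genes listed for this work and were found by symbol among 30165 genes of the OPC table and 17918 genes of the neuron table. The group was picked for Dusp26, which was chosen on its low counts in dKO oligodendrocyte precursor cells (OPCs), so the dKO against ctl values of the members in OPCs are given as a description and without a test.

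The study was about contacts of OPCs with neuronal cell bodies, and it compared OPCs and neurons of mice with and without L-type calcium channels in OPCs. In dKO mice, tamoxifen given about a week after birth induced NG2-CreERT2 to delete floxed parts of the channel genes Cacna1c (Cav1.2) and Cacna1d (Cav1.3), and since the recombinase is driven from the NG2 (Cspg4) locus, other cells that use this locus can also recombine. The ctl mice are labelled WT, and their recombinase and floxed allele status and the age at cell isolation are not given in the sources used here. From the cortex, OPCs were enriched on magnetic beads against CD140, NG2 and O4, and neurons were what remained after bead removal of cells positive for ACSA-2, CD31, CD11b or O4. Each of the 4 groups (ctl and dKO, OPCs and neurons) had 3 libraries, each from pooled cells of 2 mice.

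MAP kinases such as ERK, JNK and p38 are switched on by dual phosphorylation at the end of a Ras, Raf and MAP kinase kinase cascade, and the MAP kinase phosphatases undo that step. The genes of several of these phosphatases are themselves induced by the kinases they switch off, which makes them part of a negative feedback together with the Sprouty and Spred proteins. In oligodendrocyte lineage cells, growth factor receptors signal through ERK during proliferation and myelination.

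By role, the members fall into MAP kinase phosphatases, which carry an extra amino-terminal domain that binds the kinase, and atypical dual specificity phosphatases, which lack it. Dusp1, Dusp4 and Dusp5 are nuclear and inducible, Dusp6 and Dusp7 act on ERK in the cytoplasm, and Dusp10 and Dusp16 act mainly on JNK and p38. Dusp3 (VHR), Dusp15 (VHY) and Dusp26 are atypical. This split is visible in the coding sequences of the GENCODE M21 annotation (build GRCm38): the longest coding sequence had 211 codons in Dusp26, 210 in Dusp3 and 235 in Dusp15, against 367 in Dusp1 to 660 in Dusp16 among the MAP kinase phosphatases.

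All members share the catalytic loop in which a cysteine takes over the phosphate. The stretch of 24 coding bases that encodes it is shown for each, 5′ to 3′ on the coding strand. This lets Dusp26 be set beside the others. The capitals mark the codons of the histidine, the catalytic cysteine and the arginine, with 5 codons between the last pair, and each coding sequence held 1 such stretch.
Dusp26: CACTGTgcggtgggagtgagcAGA
Dusp3: CATTGCcgcgagggctacagcCGC
Dusp15: CACTGCtttgcaggtatatctCGA
Dusp1: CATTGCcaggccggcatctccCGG
Dusp4: CACTGCcaggccggcatctccCGA
Dusp5: CACTGCgaagctggggtttccCGG
Dusp6: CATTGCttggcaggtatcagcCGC
Dusp7: CACTGCctagcaggcatcagcCGT
Dusp10: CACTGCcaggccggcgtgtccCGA
Dusp16: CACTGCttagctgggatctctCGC

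The Dusp26 stretch lies at chr8:31096203-31096226 on the plus strand of GRCm38, in exon 4 of 4, and the cysteine is codon 152. It alone used TGT for the cysteine and AGA for the arginine, where the other members used TGC and codons that begin with CG. It shared 10 (Dusp16) to 15 (Dusp10) of 24 bases with the others, whereas Dusp1 and Dusp4, and likewise Dusp4 and Dusp10, shared 22, and Dusp6 and Dusp7 shared 19. Dusp3, also atypical, was about as far from the others by this count, with 10 (Dusp15) to 16 (Dusp6 and Dusp7) shared bases. Synonymous codons enter a count of bases, and the encoded residues were not compared. In the last exon of their genes lay the stretches of Dusp1 (chr17:26506592-26506615, minus strand), Dusp3 (chr11:101974902-101974925, minus), Dusp4 (chr8:34818433-34818456, plus) and Dusp5 (chr19:53540951-53540974, plus). The same held for Dusp6 (chr10:99266027-99266050, plus), Dusp7 (chr9:106373674-106373697, plus) and Dusp10 (chr1:184074293-184074316, plus). That of Dusp16 (chr6:134720559-134720582, minus) lay in exon 6 of 7, and that of Dusp15 was split between exons 5 and 6 of 7 (within chr2:152944304-152945431, minus).

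Promoter sequences of RefSeq (GRCm38.p6, 250 bases before to 50 after the start) were found for 7 of the 10 members, with none for Dusp4, Dusp15 and Dusp26. They were searched on both strands for the calcium and cAMP response element (CRE) TGACGTCA, its half-site TGACG, the ETS core CCGGAA, the AP-1 site TGANTCA and the CArG box of serum response factor. The half-site overlaps the full CRE. Dusp1 held a CRE that starts 143 bases before the start, a motif present in 1.79% of all 32851 promoters, and a further half-site (20.81% of promoters). Dusp5 held CArG boxes side by side (1.63% of promoters) and a half-site, and Dusp16 a half-site. Dusp3, Dusp6, Dusp7 and Dusp10 held none of these letters in this window. The stretches around the matches in Dusp1 (chr17:26508588-26508635, minus strand) and Dusp5 (chr19:53529043-53529102, plus strand) are printed with the matches in capitals, because of the 7 members searched these held the motifs found in the fewest promoters.
Dusp1: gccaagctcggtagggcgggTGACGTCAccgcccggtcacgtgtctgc
Dusp5: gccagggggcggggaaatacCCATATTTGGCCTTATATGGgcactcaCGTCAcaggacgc

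The libraries held 14935963 to 19812274 counted reads in OPCs and 15052892 to 16344601 in neurons. Values are CPM, counts scaled to library size with TMM normalization, unless FPKM, which also divides by length, is named. In the OPC libraries the summed CPM of 11 oligodendrocyte markers (Mbp and Mobp among them) was 49619 to 86001. It was 1460 to 2817 for 11 OPC markers (led by Olig1, Sox10 and Gpr17), not all of which are confined to OPCs. Pdgfra, a defining OPC marker, was at 43.8 to 186 CPM. In the neuron libraries 10 endothelial markers (led by Itm2a, Slco1a4 and Flt1) summed to 11960 to 27100 CPM, against 759 to 1733 for 11 neuron markers, and the neuronal gene Rbfox3 was at 4.85 to 18.8 CPM. The values below are therefore those of cell fractions that carried much RNA of the oligodendrocyte lineage and of endothelial cells, and in such bulk samples fewer cells of a type and less RNA per cell cannot be told apart. Of the targeted genes, Cacna1c had CPM of 21.3, 23.5 and 25.1 in ctl and 14.4, 19.3 and 17.9 in dKO OPCs (log2 fold change −0.44, standard error (SE) 0.15, adjusted p = 0.349, edgeR), without overlap, and Cacna1d had a log2 fold change of −0.55 (SE 0.31, adjusted p = 0.531, edgeR), with overlap. The counts cover whole genes, and the deletion removes only a part of each.

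In ctl OPCs, Dusp1, Dusp26 and Dusp3 were the most abundant members per length. Dusp1, an immediate early gene of the stress and growth factor response, had 157.6 ± 8.34 FPKM (SD, n = 3 libraries). Dusp26 came next with 70.1 ± 12.5 FPKM (SD, n = 3), more than 97.2% of all genes tested in OPCs, and Dusp3, a broadly used phosphatase of ERK and JNK, had 50.5 ± 4.53 FPKM (SD, n = 3). The libraries of these members did not overlap with each other or with those of the next gene in the order.

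Dusp7 (24.6 FPKM), Dusp10 (19.3 FPKM), Dusp15 (18.8 FPKM) and Dusp6 (14.4 FPKM) followed, and the ctl OPC libraries of each neighbouring pair in this order overlapped. Dusp16 was at 8.19 FPKM, Dusp5 at 4.16 FPKM and Dusp4 at 1.61 FPKM, in each case below all ctl libraries of the gene before it.

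In ctl neurons, whose table was made and scaled separately, Dusp1 (361.8 ± 89.8 FPKM, SD, n = 3) and Dusp3 (136.6 ± 10.4 FPKM, SD, n = 3) were again high. Dusp6, the cytoplasmic ERK phosphatase, was the third with 74.1 ± 6.62 FPKM (SD, n = 3), and the libraries of these members did not overlap. All others were lower and overlapped with the next in the order: Dusp7 at 10.8 FPKM, Dusp26 at 6.90, Dusp16 at 6.71, Dusp5 at 4.44, Dusp10 at 3.76, Dusp4 at 2.71 and Dusp15 at 2.01. Within its own table Dusp26 stood above 97.2% of the tested genes in OPCs but above 43.3% in neurons, and Dusp6 above 82.3% in OPCs and 90.3% in neurons. The difference between the cell types was not tested, because the tables were counted in different ways.

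Most of the reads of some members came from 1 transcript of the RefSeq annotation in the neuron table. For Dusp26, 1 of 2 transcripts took 73.2% of the estimated counts and the other 26.8%, and for Dusp3 1 of 3 took 84.8%. The deposited gene model of Dusp1 overlaps Ergic1 on the opposite strand, and the library kit does not mark strand, so part of the Dusp1 count could belong to Ergic1, which had 536 to 845 reads in the OPC libraries against 7177 to 12304 for Dusp1. For the other members, overlapping genes of the opposite strand had at most 30 reads in an OPC library.

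All 10 members passed the filter on low counts (a mean normalized count of at least 10) in OPCs. The median of their log2 fold changes was −0.07, against 0.01 over all 17364 genes tested, and 6 were below 0 and 4 above. As each library was left out, this median ran from −0.17 (without dKO replicate 1) to 0.02 (without ctl replicate 2), so its sign depended on single libraries. The dKO and ctl libraries did not overlap for 3 members, which compares with 17.0% of all genes tested: 2 members were higher in dKO (7.41% of all genes) and 1 was lower (9.55%). With this test 11.5% of all genes had an unadjusted p under 0.05 and 0.00576%, a single gene, an adjusted p under 0.05. Since the group was picked for Dusp26, which was chosen from this contrast, nothing is read from these shares.

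**Figure D1:**
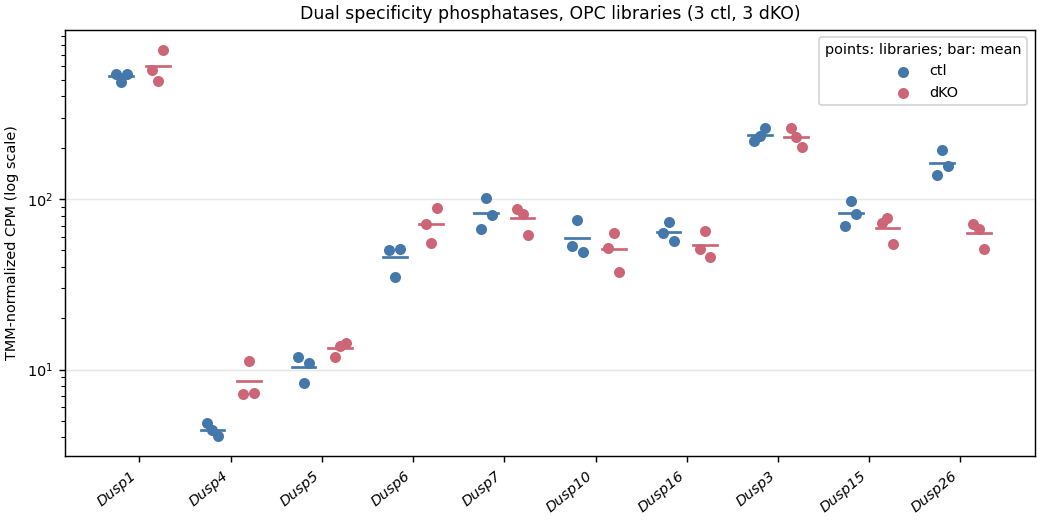
Normalized counts of each member in the OPC libraries, in CPM on a log axis, with 1 point per library (3 ctl in blue, 3 dKO in red) and a bar at the mean of each group. For Dusp26 all dKO points lie below all ctl points, for Dusp4 and Dusp6 they lie above, and for the other members the groups overlap.

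Dusp26 (ENSMUSG00000039661, deposited coordinates chr8:31579499-31587075, plus strand) encodes a phosphatase of brain and neuroendocrine tissue that acts on p38. It was counted with 834 to 2830 reads per OPC library. Its CPM was 139, 193 and 156 in the ctl OPC libraries. In the dKO OPC libraries it was 71.6, 67.1 and 51.0. The highest dKO library was thus well below the lowest ctl library, and the log2 fold change was −1.36 (SE 0.17), a 2.57-fold lower level.

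As each library was left out, the log2 fold change of Dusp26 lay between −1.46 (without ctl replicate 1) and −1.22 (without ctl replicate 2), which describes the libraries used to choose it. In OPCs 0 cell type markers passed the adjusted threshold with edgeR, while DESeq2 called 10 microglia, 4 astrocyte and 1 oligodendrocyte markers. At an unadjusted p under 0.05 edgeR gave 12 microglia, 7 astrocyte, 3 oligodendrocyte, 2 neuron and 1 OPC marker. The median log2 fold change of the 11 oligodendrocyte markers was −0.43, with 9 below 0 and 3 lower without overlap, and their summed level overlapped between the groups. The OPC markers had 8 of 11 genes above 0 (median 0.57), and those below 0 were Olig1 (−0.14), Olig2 (−0.07) and Sox10 (−0.36). The neuron markers had 10 of 11 genes above 0 (median 0.42). Endothelial markers were above 0 in 10 of 10 cases (median 0.28) and mural cell markers in 6 of 8 (median 0.39), and the sums of all 4 lists overlapped.

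Microglia markers summed to 282 to 342 CPM in ctl and 376 to 1142 in dKO OPC libraries, with 12 of 12 genes above 0 and a median log2 fold change of 1.33. Astrocyte markers summed to 1062 to 1880 CPM in ctl and 1812 to 5429 in dKO libraries, with 8 of 8 above 0 and a median of 1.09, and their sums overlapped. None of the markers of these lists was at 0 in all libraries. Among dKO libraries, replicate 2 had the lowest microglia sum and the highest astrocyte sum. The part of these cells in the values of the members was not tested.

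Dusp4 (ENSMUSG00000031530, deposited coordinates chr8:35274451-35287048, plus strand), a nuclear phosphatase of ERK and JNK, was the least abundant member in OPCs, with 65 to 216 reads per library. It had CPM of 4.86, 4.43 and 4.06 in ctl OPCs and of 7.16, 11.2 and 7.28 in dKO OPCs. All dKO libraries were above all ctl libraries, replicate 2 by the widest margin. The log2 fold change was 0.94 (SE 0.24), or 0.70 without dKO replicate 2.

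Dusp6 (ENSMUSG00000019960, deposited coordinates chr10:99099093-99103351, plus strand), which dephosphorylates ERK and is induced by ERK signalling, had CPM of 50.4, 35.0 and 51.3 in ctl OPCs. It had 71.1, 55.5 and 88.8 in dKO OPCs. The groups did not overlap, and the dKO library with the lowest value was close to the highest ctl library. The log2 fold change was 0.66 (SE 0.20), with a range of 0.46 (without dKO replicate 3) to 0.81 (without dKO replicate 2).

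Dusp5, a nuclear phosphatase specific for ERK, had CPM of 11.81, 8.31 and 10.9 in ctl and 11.80, 13.8 and 14.3 in dKO OPCs. The groups overlapped only through the nearly equal values of both replicates 1, and the log2 fold change was 0.36 (SE 0.18), or 0.23 without ctl replicate 2. Under upper-quartile or DESeq2 scaling, or without the filter, 4 members rather than 3 separated the groups. The share of all genes under these settings is not given here. Dusp1 had 544, 489 and 543 CPM in ctl and 568, 495 and 753 CPM in dKO OPCs, and its log2 fold change of 0.20 (SE 0.17) was 0.01 without dKO replicate 3. That library alone lay clearly above the ctl libraries.

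The remaining members were at or below their ctl level on average, and all overlapped between the groups. Dusp15, an N-terminally myristoylated phosphatase linked to oligodendrocyte differentiation, had CPM of 69.7, 97.8 and 81.7 in ctl and 72.5, 77.2 and 54.5 in dKO OPCs (log2 fold change −0.29, SE 0.17, or −0.15 without ctl replicate 2). Dusp16 and Dusp10, the phosphatases of JNK and p38, had log2 fold changes of −0.25 (SE 0.16) and −0.22 (SE 0.22). These were −0.41 for both when dKO replicate 2 was left out, and −0.15 and −0.01 when ctl replicate 2 was. In Dusp15, Dusp16 and Dusp10 dKO replicate 3 was the lowest library. The same was true of Dusp7, with −0.11 (SE 0.18), and of Dusp3, with −0.04 (SE 0.13), and the direction of both changed when single libraries were left out (highest value 0.06 for Dusp7 and 0.04 for Dusp3).

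By profile over the 6 OPC libraries, the 5 protein-coding genes most like Dusp26 were Grm7, Spocd1, Cldn14, Speer4a and Onecut2. Likeness is the root mean square difference between the log2 CPM profiles after centring, over 14434 genes compared. It was 0.15 for Grm7 and Spocd1 and 0.24 for the other genes, against a median of 0.75 over all genes. Their log2 fold changes in OPCs ran from −1.45 (Grm7) to −1.05 (Speer4a). Likeness to a gene chosen for its fall in these libraries picks other genes that fall in them. Grm7, a metabotropic glutamate receptor, had CPM of 35.5, 44.2 and 32.1 in ctl and 17.2, 14.3 and 9.49 in dKO OPCs. Spocd1 (1.85 to 2.45 CPM in ctl) and Speer4a (2.50 to 3.88 CPM in ctl) were low. In neurons the log2 fold changes of Grm7 and Onecut2 were 0.44 (adjusted p = 0.860, edgeR) and −0.31 (adjusted p = 0.884, edgeR).

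The genes next to Dusp26 on chromosome 8 were examined after the values had been seen. Rnf122, a ubiquitin ligase gene 14.8 kb downstream of Dusp26, had CPM of 41.2, 58.5 and 44.5 in ctl and 30.9, 32.4 and 23.1 in dKO OPCs. Fut10, a fucosyltransferase gene 90.3 kb downstream, had 20.7, 27.3 and 25.4 in ctl and 15.4, 15.6 and 14.6 in dKO OPCs. For both genes every dKO library was below every ctl library, as for Dusp26, yet neither passed the test across all genes: the log2 fold change was −0.74 for Rnf122 (SE 0.18, adjusted p = 0.283, edgeR) and −0.69 for Fut10 (SE 0.14, adjusted p = 0.246, edgeR).

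Between them, Tti2 and Mak16 had log2 fold changes of −0.19 (SE 0.17) and −0.24 (SE 0.19), with overlap. Farther away, Nrg1 (neuregulin 1), 717.5 kb downstream, had 0.69 (SE 0.37, adjusted p = 0.516, edgeR), with overlap. The processed pseudogene Nudc-ps1, 1802.5 kb upstream, had CPM of 10.5, 11.2 and 10.6 in ctl and 28.3, 44.2 and 23.6 in dKO OPCs (log2 fold change 1.57, SE 0.23, adjusted p = 0.165, edgeR). Reads of a pseudogene and its parent gene can be hard to tell apart. In neurons the log2 fold change was 0.21 for Rnf122 and 0.38 for Fut10, with overlap for both.

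**Figure D2:**
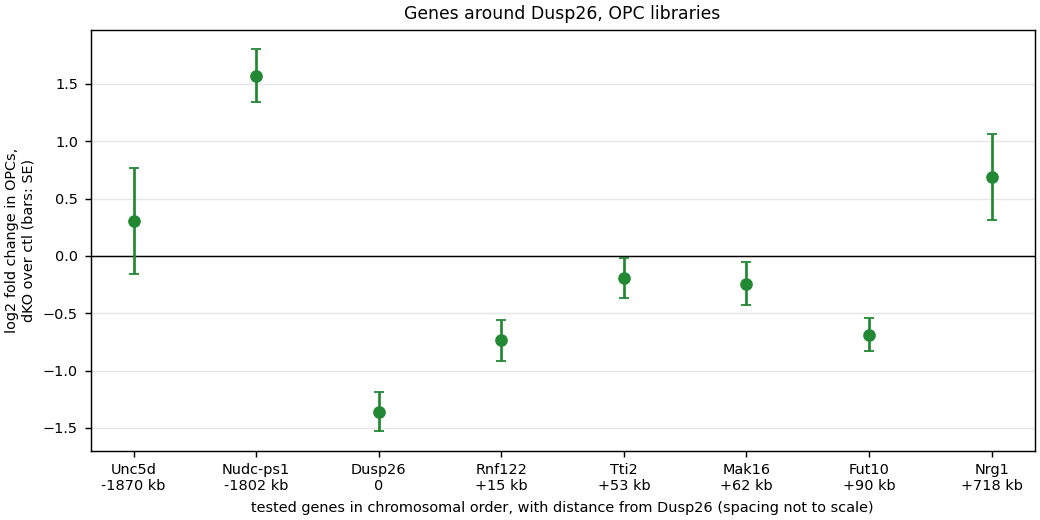
log2 fold change (dKO over ctl, bars are the SE) in OPCs of Dusp26 and the tested genes within 2 Mb, in their order on the chromosome, with the distance from Dusp26 in kb under each name. Rnf122 (−0.74) and Fut10 (−0.69) are below 0 like Dusp26 (−1.36), with Tti2 and Mak16 nearer to 0 between them and Nudc-ps1 at 1.57.

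In neurons all 10 members passed the filter as well, and the rule that chose the group did not use these libraries. None had an adjusted p under 0.05 with edgeR, as was true of all 14352 genes tested (0%), and 1 of 10 had an unadjusted p under 0.05, where all genes gave 9.00%. DESeq2 gave 0 members with an adjusted p under 0.05. The median log2 fold change of the members was 0.01 and that of all genes 0.01. As each library was left out, the members' median ran from −0.14 (without dKO replicate 3) to 0.10 (without dKO replicate 1). The groups did not overlap for 2 members, 1 higher (7.50% of all genes) and 1 lower (7.82%), against 15.3% of all genes in either direction, so the members' share was close to the background.

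**Figure D3:**
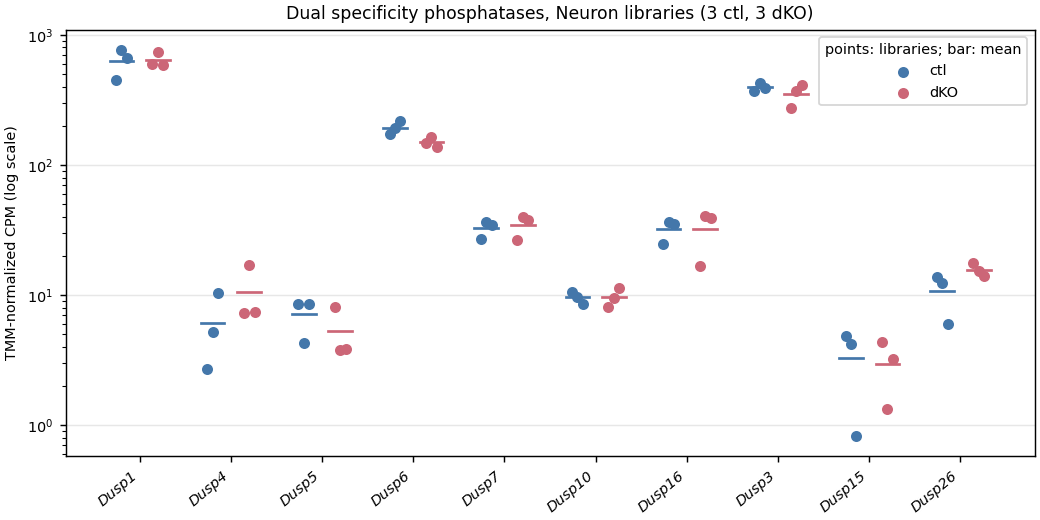
Normalized counts of each member in the neuron libraries, in CPM on a log axis, with 1 point per library (3 ctl in blue, 3 dKO in red) and a bar at the mean of each group. The dKO points lie above the ctl points for Dusp26 and below them for Dusp6, and the groups overlap for the other members.

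Dusp6 had CPM of 172, 191 and 218 in ctl neurons and of 147, 166 and 137 in dKO neurons. All dKO libraries were below all ctl libraries by a narrow gap. The log2 fold change was −0.37 (SE 0.15, adjusted p = 0.525, edgeR; unadjusted p = 0.0358).

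Dusp26 had 13.8, 12.4 and 6.04 CPM in ctl neurons and 17.7, 15.5 and 14.0 CPM in dKO neurons. The groups were barely apart, and ctl replicate 3 was below all other libraries. The log2 fold change of 0.55 (SE 0.32, adjusted p = 0.642, edgeR) was 0.26 without that library and 0.77 without ctl replicate 1.

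Dusp4 varied widely between neuron libraries, with 2.73, 5.23 and 10.4 CPM in ctl and 7.28, 17.0 and 7.47 CPM in dKO neurons. Its log2 fold change of 0.80 (SE 0.53, adjusted p = 0.689, edgeR) fell to 0.28 when dKO replicate 2 was left out and was 1.41 without ctl replicate 3. Dusp5 had 8.52, 4.30 and 8.58 CPM in ctl and 8.16, 3.76 and 3.87 CPM in dKO neurons (log2 fold change −0.44, SE 0.43, adjusted p = 0.779, edgeR), a value that became −0.90 when dKO replicate 1 was left out and −0.24 when dKO replicate 2 was. The groups of both genes overlapped.

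Dusp1 (log2 fold change 0.02, SE 0.22), Dusp10 (0.02, SE 0.25), Dusp16 (0.01, SE 0.32) and Dusp7 (0.09, SE 0.20) were near 0 in neurons. Dusp3 was at −0.17 (SE 0.18), with −0.30 when dKO replicate 3 and −0.01 when dKO replicate 1 was left out, and Dusp15, at under 5 CPM in each library, at −0.16 (SE 0.68). Their adjusted p ranged from 0.800 (Dusp3) to 0.997 (Dusp16) by edgeR, and all overlapped between the groups. The standard errors leave room for differences of the size seen in OPCs for some of these genes, so they were not shown to be alike in ctl and dKO neurons.

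In neurons 0 cell type markers passed the adjusted threshold with edgeR or DESeq2, and at an unadjusted p under 0.05 edgeR gave 3 endothelial, 2 astrocyte and 1 each of the OPC, oligodendrocyte and neuron markers. The endothelial sum was 23153 to 27100 CPM in ctl and 11960 to 20935 in dKO libraries, without overlap, and 10 of 10 endothelial markers had a log2 fold change below 0, 7 of them without overlap. The neuron markers were above 0 in 11 of 11 cases (median 0.54), and their sums overlapped. Below 0 were 11 of 11 oligodendrocyte markers (median −0.91), 12 of 12 microglia markers (median −0.71), 8 of 11 OPC markers (median −0.61) and 7 of 8 astrocyte markers (median −0.40), and the sums of these lists overlapped between the groups. Whether this bears on Dusp6 or Dusp26 in neurons was not tested.

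**Figure D4:**
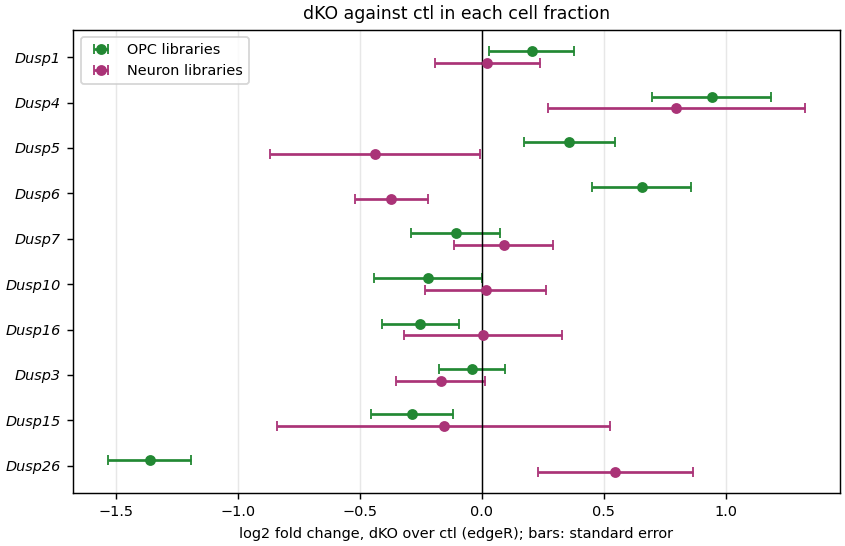
log2 fold change of each member (dKO over ctl, edgeR, bars are the SE) in OPC libraries (green) and neuron libraries (purple). Dusp26 lies at −1.36 in OPCs and 0.55 in neurons, Dusp6 at 0.66 and −0.37, and Dusp4 above 0 in both.

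Of the 17 other listed dual specificity phosphatases, 14 were tested in OPCs, where 8 were above 0, the median was 0.05 and 0 had an unadjusted p under 0.05 with edgeR (0 with an adjusted p under 0.05 by DESeq2). The sign of this median depended on single libraries: it was below 0 when any library other than dKO replicate 1 was left out, at the lowest −0.13 without dKO replicate 2. Dusp11, an RNA phosphatase, had −0.29 (SE 0.13, adjusted p = 0.451, edgeR), Dusp27 0.85 at 0.538 to 2.08 CPM (SE 0.42, adjusted p = 0.484, edgeR), and Styx, a catalytically inactive relative, −0.33 (SE 0.21, adjusted p = 0.568, edgeR).

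In neurons 11 of the 17 were tested and 7 were below 0. Dusp8, a JNK phosphatase of brain, had 25.6, 38.1 and 29.5 CPM in ctl and 45.9, 50.0 and 39.5 CPM in dKO neurons, without overlap (log2 fold change 0.54, SE 0.19, adjusted p = 0.521, edgeR). Dusp22 was lower without overlap (−0.43, SE 0.15, adjusted p = 0.521, edgeR), and Dusp18 was at 0.45 (SE 0.22, adjusted p = 0.576, edgeR) with overlap, at 0.30 without ctl replicate 1 and at 0.67 without ctl replicate 2.

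Of 13 MAP kinases, 13 were tested in OPCs, with 5 above 0, a median of −0.02 (0.02 without dKO replicate 2) and 0 at an unadjusted p under 0.05, and those with the smallest p were Mapk8 (JNK1, −0.21), Mapk7 (ERK5, −0.23) and Mapk4 (0.29). Of 18 genes for Ras, Raf and MAP kinase kinases, 6 were above 0 and the median was −0.07, which was 0.02 with 9 above 0 without ctl replicate 2. Ksr1, a scaffold that brings Raf, MEK and ERK together, had CPM of 62.0, 71.0 and 61.4 in ctl and 49.0, 50.8 and 46.1 in dKO OPCs (log2 fold change −0.41, SE 0.11, adjusted p = 0.290, edgeR), without overlap. Araf (−0.20) was also lower without overlap. Of the other MAP kinase phosphatases, 7 of 8 were tested (median 0.02, or −0.03 without ctl replicate 3 and 0.15 without dKO replicate 3), and Ptprr (0.64, SE 0.25, adjusted p = 0.395, edgeR), Ppp2cb (0.21) and Ptpn5 (0.71, SE 0.47) had the smallest p.

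The genes induced by ERK signalling, which include the inhibitors of the Sprouty and Spred families, were mostly higher in dKO OPCs, though none passed the adjusted threshold. Of 22 listed genes 21 were tested, 19 had a log2 fold change above 0 (90.5%, against 50.8% of all genes tested), and the median was 0.45, against 0.01 for all genes. At an unadjusted p under 0.05 there were 8, all higher (1088 of the 17364 genes tested were), and 6 were higher without overlap (7.41% of all genes). DESeq2 gave 2 genes with an adjusted p under 0.05, Ier3 and Spred2, among 293 of all genes. The number above 0 was between 16 and 19 and the median between 0.35 and 0.53 as each library was left out in turn. The list was written with results of these data known, so this is no independent evidence of its direction.

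Ier3, an early response gene that prolongs ERK activity, had CPM of 29.6, 22.6 and 29.7 in ctl and 46.7, 42.1 and 54.6 in dKO OPCs (log2 fold change 0.81, SE 0.15, adjusted p = 0.246, edgeR). Spred2, which blocks the activation of Raf, had 22.9, 18.7 and 24.3 in ctl and 30.0, 35.4 and 38.8 in dKO OPCs (0.66, SE 0.15, adjusted p = 0.262, edgeR). Ccnd1 (cyclin D1) had 21.8, 24.1 and 31.4 in ctl and 39.4, 33.8 and 38.8 in dKO OPCs (0.54, SE 0.16, adjusted p = 0.310, edgeR). In these genes, as in Dusp4 and Dusp6, every dKO library was above every ctl library. Markers of microglia, astrocytes, endothelial cells, mural cells, OPCs and neurons, given above for the OPC libraries, were also mostly above 0, and their part in the values of this list was not tested.

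Immediate early genes, which also respond to cell isolation, were above 0 in 19 of 19 cases in OPCs, and their median of 0.27 was 0.07 without dKO replicate 3, where 16 were above 0, and 0.42 without dKO replicate 2. The endothelial, microglia and mural cell sums were highest in dKO replicate 3 (3035, 1142 and 1572 CPM) and among dKO libraries lowest in replicate 2 (1111, 376 and 765 CPM), and the part of such cells in these values was not tested. Ier5 (0.53, SE 0.19, adjusted p = 0.365, edgeR), Junb (0.38, SE 0.17, adjusted p = 0.432, edgeR) and Nfkbia (0.45, SE 0.22, adjusted p = 0.481, edgeR) had the smallest p, and all overlapped between the groups. Dusp1, which belongs to the same early response, also came near 0 without that library. Of 14 p53 target genes, listed because Dusp26 is known to dephosphorylate p53, 9 were above 0 with a median of 0.05. Mdm2 was lower (−0.38, SE 0.10, adjusted p = 0.292, edgeR; adjusted p = 0.0413 by DESeq2), Ccng1 was at 0.31 (SE 0.11, adjusted p = 0.358, edgeR) and Pmaip1 at 0.81 (SE 0.37, adjusted p = 0.454, edgeR).

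**Figure D5:**
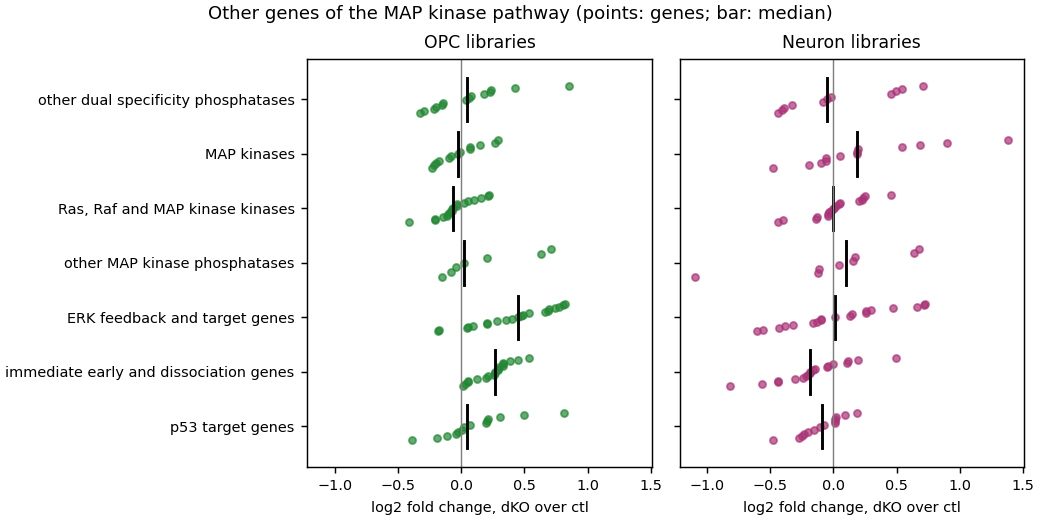
log2 fold change (dKO over ctl) of the tested genes of 7 lists in OPC libraries (left, green) and neuron libraries (right, purple), with 1 point per gene and a bar at the median. In OPCs the ERK feedback and target genes (median 0.45) and the immediate early genes (median 0.27) lie mostly to the right of 0, and in neurons their medians are 0.01 and −0.18.

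In neurons 10 of 19 tested ERK feedback and target genes were above 0, with a median of 0.01 that ran from −0.10 (without dKO replicate 1) to 0.16 (without ctl replicate 2). Ier3 had CPM of 125.6, 90.9 and 83.4 in ctl and 54.2, 73.8 and 69.2 in dKO neurons (log2 fold change −0.60, SE 0.20, adjusted p = 0.521, edgeR), lower without overlap, as Dusp6 was. Etv1 had 0.72 (SE 0.29, adjusted p = 0.525, edgeR), with overlap, and Errfi1 −0.32 (SE 0.19, adjusted p = 0.650, edgeR). Of the immediate early genes 4 of 19 were above 0 in neurons (median −0.18), and as each library was left out the median ran from −0.31 (without dKO replicate 2) to −0.01 (without dKO replicate 1, with 8 of 19 above 0). Nfkbia (−0.57, SE 0.18) and Klf6 (−0.44, SE 0.15) were lower and Egr1 (0.50, SE 0.16) was higher without overlap, each with an adjusted p of 0.521 by edgeR.

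Among the kinases and their activators in neurons, Mapk10 (JNK3, the neuronal JNK) had 26.9, 26.1 and 28.4 CPM in ctl and 47.6, 34.9 and 36.0 CPM in dKO neurons (log2 fold change 0.54, SE 0.17, adjusted p = 0.521, edgeR), without overlap. Mapk4 (0.69, SE 0.26) was also higher and Mapk12 (p38 gamma, −0.48, SE 0.21) lower without overlap, with adjusted p = 0.521 and 0.551 by edgeR. Of the Ras, Raf and MAP kinase kinase genes 9 of 18 were above 0, and Sos1 (−0.44), Map2k3 (−0.40) and Map2k7 (0.23) had the smallest p. Of the other MAP kinase phosphatases 5 of 8 were above 0, with Ppp2cb at 0.64 (SE 0.17, adjusted p = 0.521, edgeR) without overlap, Ptpn5 at 0.68 and Ptpn7 at −1.09 (SE 0.69). Of the p53 target genes 6 of 14 were above 0, and Gadd45a (−0.48), Trp53inp1 (−0.27) and Sesn1 (−0.23) had the smallest p.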

How the data were processed

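RNA-seq libraries of OPCs and cortical neurons (4 groups, 3 libraries each) were compared between dKO and ctl mice. For OPCs the authors deposited raw counts per Ensembl gene, made by their methods with HISAT2 on GRCm38 and featureCounts, with FPKM and with columns of their own comparison (fold change, p and adjusted p), which were not used. The labels name mm39, and the deposited coordinates are not those of GRCm38, so they are given as deposited. For neurons the authors deposited estimated counts and FPKM per RefSeq transcript, for 66298 transcripts. The stated methods do not set neurons apart, but counting per gene with featureCounts does not give estimates per transcript, and the program that made these is not given in the sources used here. Both were summed per gene, the estimated counts were rounded, and 17794 of 17918 genes were matched to symbols (0.0441% of the counts had none). FPKM, which the authors deposited, served only to order the levels of genes.

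Libraries were assigned by column name and sample title. The libraries of a group differed beyond counting error (chi-square per gene at least 14.3), so none was a copy. p-values cover the spread between these pools of 2 mice.

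Genes whose mean normalized count reached 10 were tested per cell type with edgeR 4.0.16 (R 4.3.3, TMM, quasi-likelihood, genotype as the only term, Benjamini-Hochberg adjustment over all genes, threshold 0.05). The SE is |log2 fold change| / √F. With 3 libraries per group an exact permutation test of a single gene cannot give a p under 0.1. In simulated counts where 200 genes differed by 2 on the log2 scale, 192 of these were called in OPCs and 173 in neurons. Of the genes made without a difference, 10 were called in OPCs and 12 in neurons. The log2 fold changes of all members were smaller in size than 2, and the detection of smaller differences was not tested. Alternatives were DESeq2 1.42.0, other normalizations, no filter, a replicate block and each library left out. The members and lists were chosen with earlier results of these data known. Genes named are the 10 members, the targeted genes, up to 3 genes with the smallest unadjusted p per pathway list and cell type, up to 3 most abundant genes per marker list and the 5 genes most like Dusp26. Pdgfra, Olig2, Rbfox3, Ergic1, Emp1 and the neighbours of Dusp26 were named after their values had been seen. Coding and promoter sequences are from GENCODE M21 and RefSeq. Proteins were not analysed here.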

Additional observations from a re-analysis of the deposited data

Results flagged for a closer look

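Among the members and the other genes of the pathway lists, 4 had a pattern in which all dKO libraries lay on one side of all ctl libraries in OPCs and on the other side in neurons. The log2 fold change was −1.36 in OPCs and 0.547 in neurons for Dusp26, and 0.655 in OPCs and −0.37 in neurons for Dusp6. It was −0.153 in OPCs and 0.539 in neurons for Dusp8, and 0.807 in OPCs and −0.604 in neurons for Ier3. The difference between the cell types was not tested for any of them, since the tables were counted in different ways and the OPC values of Dusp26 were used to choose the group. Of 13401 genes tested in both cell types, 173 (1.29%) had this pattern and 132 were apart in the same direction in both. The share among the members and list genes was not computed, and the lists were written with results of these data known. The 4 genes are therefore not set against this percentage.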

How the results depend on the processing

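In OPCs the number of all genes with an adjusted p under 0.05 was 1 with edgeR, 293 with DESeq2 and 87 without the filter, and it ranged from 1 to 199 when each library was left out, with 199 without dKO replicate 2 and 2 without dKO replicate 3. Unadjusted, 2003 genes had a p under 0.05, and 1106 to 2292 as libraries were left out, the lowest without ctl replicate 2. The replicate numbers did not pair the libraries (correlation of same-numbered libraries −0.108, 0.147 and 0.113 in OPCs and 0.166, −0.076 and −0.076 in neurons). With the replicate block 27 OPC genes passed. Members whose OPC groups did not overlap numbered 3, and 3 to 5 as libraries were left out. The number was 5 without ctl replicate 1 or dKO replicate 2. With a library left out the groups of any gene separate more easily. No share over all genes is given for these settings, so the change in number is not read as a result. In the pathway lists 0 genes passed in OPCs, 3 with DESeq2 (Ier3, Spred2 and Mdm2), 1 without the filter (Ier3) and 0 to 3 as libraries were left out (Ier3, Emp1 and Ier5 without dKO replicate 2). In neurons 0 genes passed with edgeR and 88 with DESeq2, and 1292 had an unadjusted p under 0.05 (780 to 1581 as libraries were left out, the lowest without ctl replicate 1). The direction of members near 0 in neurons turned as libraries were left out, with log2 fold changes of −0.17 to 0.20 for Dusp1 (also −0.09), −0.029 to 0.25 for Dusp7 (also −0.024), −0.12 to 0.13 for Dusp10 (also −0.07), −0.61 to 0.22 for Dusp15 (also 0.19 and 0.07) and −0.19 to 0.32 for Dusp16 (also −0.16 and −0.15). Dusp16 was also at −0.0016 with DESeq2 or its scaling and at −0.075 with the replicate block. The cause was not tested.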
